A study of Homo sapiens with 9 samples.

Results

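Amino acid transporters were examined in HEK293 cells depleted of SmcHD1, a chromatin protein of the SMC family best known for its role on the inactive X chromosome. The set consisted of 10 genes that carry amino acids across the cell membrane: SLC1A4, SLC1A5, SLC3A2, SLC7A1, SLC7A3, SLC7A5, SLC7A11, SLC38A1, SLC38A2 and SLC6A9. All probes whose RefSeq accession mapped to one of these genes were taken, which gave 13 of the 42405 probes on the array. SLC38A1, SLC38A2 and SLC6A9 had 2 probes each and the other genes 1. Of the 13 probes, 12 were tested, against 32276 tested over the whole array, and these 12 covered 9 of the 10 genes.

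HEK293 is a human embryonic kidney line, and messenger RNA was measured in it with single-colour Agilent microarrays. Cells were stably infected with a retrovirus carrying shRNA 3 (KD3) or shRNA 4 (KD4), whose hairpins have different sequences and target SmcHD1, or shRNA NC5 (CTL), a control hairpin. There were 3 arrays per group, and all 3 groups carried a pQCXIP-GFP vector. The methods state that infected HEK293 cells were selected with puromycin, and the labels list no other treatment. The methods call the arrays of a group biological triplicates, but do not say whether each came from its own infection, so that p-values measure the spread between these arrays. As the mRNA came from bulk populations, fewer cells with a transcript and less transcript per cell cannot be told apart.

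Mammalian cells take up amino acids through several solute carrier families with overlapping substrates. Sodium-coupled symporters of the SLC38 and SLC6 families accumulate small neutral amino acids, exchangers of the SLC1 family trade one neutral amino acid for another, and SLC7 carriers either transport cationic amino acids alone or pair with the SLC3A2 glycoprotein to exchange large neutral amino acids or cystine. Several of these genes are known targets of the amino acid response, in which the kinase GCN2 (EIF2AK4) senses uncharged transfer RNA and the transcription factor ATF4 binds composite C/EBP-ATF elements in its target genes.

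The promoters of the transporters were therefore read for the core of that element. RefSeq windows from 250 bases before to 50 bases after an annotated start, on the GRCh38.p14 assembly, were found for 8 of the 10 genes, in 14 windows. SLC7A3 and SLC7A11 had no window. The letters TGATGNAA were searched on both strands, so that a match on the other strand reads TTNCATCA, and no other motif was searched. A match stood in the windows of 5 of the 8 transporters (5 of 14 windows, 35.7%), and over all promoters of the table in 1270 of 35116 windows (3.62%). Each stretch below holds 30 bases, 5′ to 3′ on the strand of the gene, with the match in capitals, and ASNS and CHAC1, response genes described further on, are printed beside the transporters for comparison.
SLC1A4: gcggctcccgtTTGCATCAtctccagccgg
SLC1A5: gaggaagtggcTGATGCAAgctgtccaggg
SLC3A2: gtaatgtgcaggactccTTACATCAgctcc
SLC7A1: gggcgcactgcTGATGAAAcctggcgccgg
SLC38A1: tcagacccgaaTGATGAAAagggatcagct
ASNS: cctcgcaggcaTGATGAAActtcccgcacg
CHAC1: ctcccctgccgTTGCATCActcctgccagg

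The stretches of SLC7A1, SLC38A1 and ASNS shared the same 8 letters, TGATGAAA, while those of SLC1A4, SLC1A5 and CHAC1 held TGATGCAA on one strand or the other. On GRCh38.p14 the SLC1A4 stretch lies on the plus strand at chr2:64989381-64989410, with the first letter of the match 7 bases before the start. That of SLC1A5 lies on the minus strand at chr19:46784893-46784922, 97 bases before the start of one of its 3 windows. The SLC3A2 stretch is on the plus strand at chr11:62881719-62881748, where the match begins 37 bases after the start, and the SLC7A1 stretch is on the minus strand at chr13:29595663-29595692, where it begins 7 bases after it. The SLC38A1 stretch is on the minus strand at chr12:46266502-46266531, 4 bases before the start. The response genes lie at chr7:97872458-97872487 on the minus strand (ASNS, 68 bases before) and at chr15:40953251-40953280 on the plus strand (CHAC1, 209 bases before). SLC1A4, SLC3A2 and SLC38A1 also had windows without a match. No window of SLC7A5, SLC38A2 or SLC6A9 held these letters, which says nothing of sequence outside the windows. A match is a description of letters and was not tied to binding of any factor.

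Before normalization, the median processed signal was 181.4, 164.3 and 140.5 in CTL, 135.3, 152.1 and 153.1 in KD3, and 126.5, 149.4 and 119.6 in KD4. The highest value was thus in CTL and the lowest in KD4. On the arrays, 75.1% to 79.8% of probes were well above background, no spot was saturated, and Pearson's correlation between arrays of a group was 0.9946 or higher. The targeted transcript followed the labels. By its brightest probe, SMCHD1 fell to 51.0% of CTL in KD3 (log2 difference -0.97, limma adjusted p = 0.000214) and to 34.6% in KD4 (-1.53, adjusted p = 1.81e-05). SMCHD1 was also lower in KD4 than in KD3 (-0.56, limma adjusted p = 0.0195). The arrays lay on 2 slides, each holding arrays of all 3 groups. Of 6 transcripts listed as typical of HEK293, all 6 were measured above background, with a mean log2 signal of 11.86 to 11.98 in CTL, 11.21 to 11.26 in KD3 and 11.29 to 11.35 in KD4. PAX2 (-2.41 in KD3, -2.65 in KD4), NEFM (-1.21, -1.24) and NEFL (-0.33, -0.41) of this list fell in both knock-downs, KRT18 rose in KD4 (0.34, limma adjusted p = 0.0176), and VIM and KRT8 were not called. The other PAX2 probe was not called either (-0.01 and 0.06). Of 8 markers of other cells, ALB, PECAM1, MYH1 and GFAP did not reach the test and the other 4 had means of 6.82 to 6.90 in CTL, 6.67 to 6.87 in KD3 and 6.95 to 7.13 in KD4, with COL1A1 lower in KD3 (-0.37, limma adjusted p = 0.0164). The part of these markers in the results below was not tested.

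The transporters were lower in the knock-down cells. In KD4, 11 of 12 probes, representing all 9 measured genes, fell against CTL at a limma adjusted p under 0.05 (adjusted over all probes), where 14.8% of all tested probes fell and 13.6% rose. In KD3, 5 of 12 probes, from SLC6A9, SLC3A2, SLC7A1 and SLC7A5, fell, against a background of 10.4% lower and 9.64% higher. By gene, taking the brightest probe of each, 4 of 9 fell in KD3 (14.8% of all 16082 genes fell and 10.4% rose) and 9 of 9 in KD4 (19.8% fell and 14.7% rose). The fitted difference was below 0 for 12 of 12 probes in both comparisons, with a median log2 difference of -0.34 in KD3 and -0.50 in KD4, where the medians of all tested probes were 0.01 and 0.04. No transporter probe rose in either comparison by limma, and none did at an unadjusted p under 0.05 or by the methods' t-test.

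The changes were moderate in size. At the 1.8-fold threshold of the methods together with an adjusted p under 0.05, 2 probes fell in KD4, both of SLC6A9 (3.19% of all tested probes). None fell by that much in KD3 (2.20% of all), where an unadjusted limma p under 0.05 and the methods' t-test with correction also gave 0. The KD4 values lay wholly below the CTL values for 12 of 12 probes, where this held in either direction for 44.9% of all tested probes, and the KD3 values lay wholly apart from CTL for 8 of 12 (36% of all). Both comparisons use the same CTL arrays, so that they are not independent of each other. The methods' t-test, run with unequal variances on the same values, gave 6 lower probes in KD3 (11.9% of all) and 10 in KD4 (15.7% of all) at an unadjusted p under 0.05. After Benjamini-Hochberg correction it gave 0 in KD3 (0.905% of all) and 2 in KD4 (3.57% of all), the brighter SLC38A2 probe and the dimmer SLC6A9 probe.

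**Figure D1:**
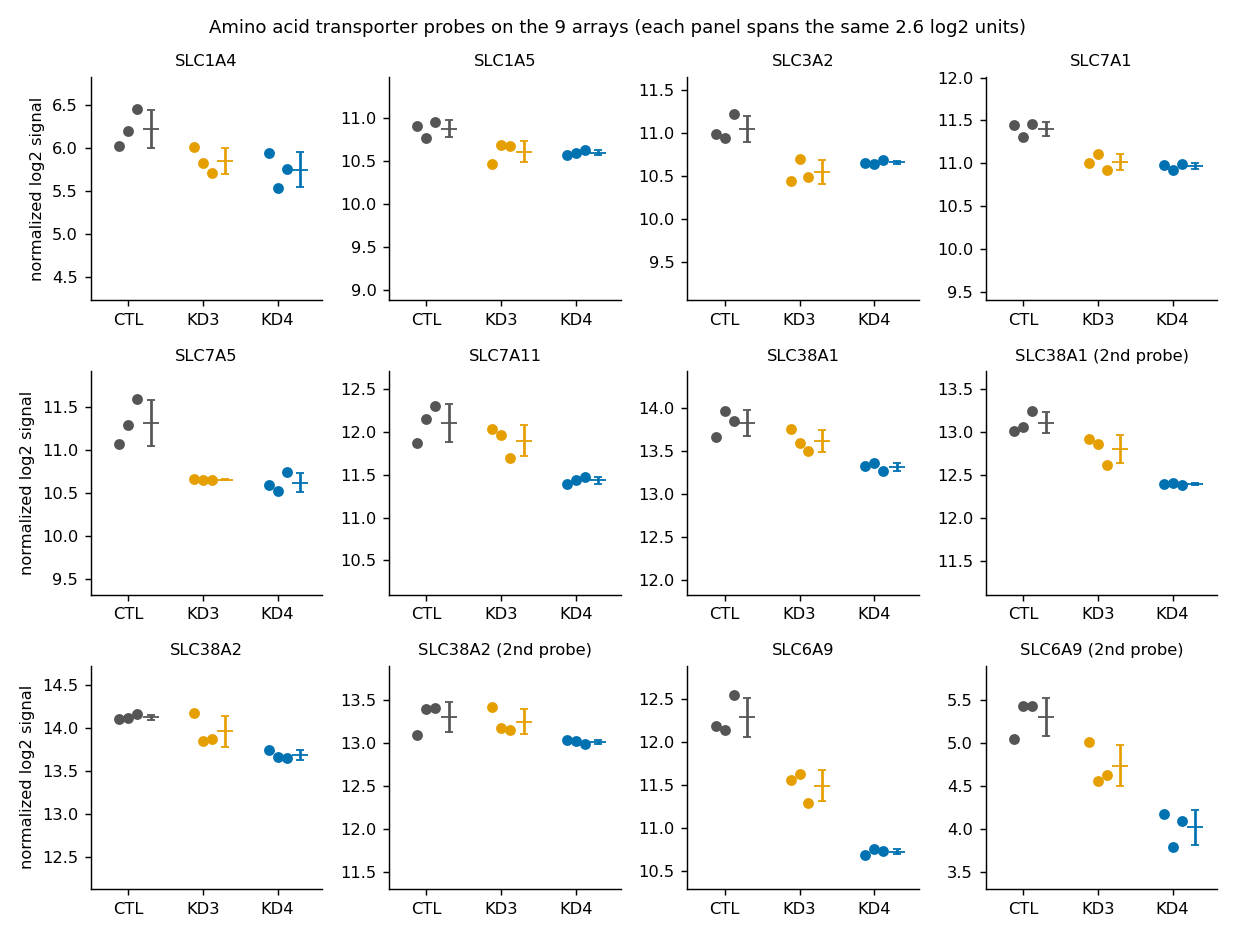
Normalized log2 signal (y axis) of the 12 tested transporter probes on the 9 arrays, in groups CTL, KD3 and KD4 (x axis). Points are arrays and the horizontal tick with its bar is the mean ± SD of 3 arrays. In all 12 panels the KD4 points lie below the CTL points, with SLC6A9 showing the widest separation.

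The glycine transporter was the member with the largest change. SLC6A9 encodes GlyT1, a sodium- and chloride-coupled carrier that takes up glycine. The log2 signal of its brighter probe was 12.18, 12.13 and 12.55 on the CTL arrays, 11.56, 11.62 and 11.29 on the KD3 arrays and 10.68, 10.75 and 10.73 on the KD4 arrays. The 3 groups did not overlap, and KD3 lay between CTL and KD4. SLC6A9 fell to 57.6% of CTL in KD3 (log2 difference -0.80 ± 0.13 SE, limma adjusted p = 0.00335) and to 33.8% in KD4 (-1.56 ± 0.13 SE, adjusted p = 9.17e-05). The difference between KD4 and KD3, -0.77 (95% interval -1.06 to -0.48, limma adjusted p = 0.0228), was called as well. Among the 9 tested members this was true of SLC6A9 alone (1.52% of all tested probes were lower in KD4 than in KD3).

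The dimmer SLC6A9 probe moved the same way. It read 5.04, 5.43 and 5.43 in CTL, 5.01, 4.56 and 4.63 in KD3, and 4.17, 3.78 and 4.09 in KD4, again without overlap between the groups. It fell by 0.57 on the log2 scale in KD3 (limma adjusted p = 0.0403) and by 1.28 in KD4 (adjusted p = 0.000807). The size of its change depended on the background correction: with normexp and an offset of 50, which raises low signals, the differences were -0.26 and -0.40. On each slide taken alone, both probes were lower in KD3 and in KD4 than in CTL, the brighter one by -0.71 and -0.76 in KD3 and by -1.60 and -1.50 in KD4. For the brighter probe the calls against CTL held without any single array, while the call between KD4 and KD3 was lost without KD3 1 (-0.73, adjusted p = 0.0819), KD3 2 (-0.70, 0.082), KD4 1 (-0.75, 0.0726), KD4 2 (-0.78, 0.0758) or KD4 3 (-0.77, 0.0772). The dimmer probe lost its KD3 call without KD3 2 (-0.48, adjusted p = 0.123), KD3 3 (-0.52, 0.115), KD4 1 (-0.57, 0.0501), KD4 3 (-0.57, 0.0579), CTL 2 (-0.50, 0.108) or CTL 3 (-0.50, 0.124), and with no filter on dim probes (0.0725), only the KD3 and CTL arrays in the fit (0.061) or slide as a block (0.0633).

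SLC3A2 and SLC7A5, which encode the subunits of a single exchanger, fell in both knock-downs. SLC3A2 is the heavy chain (CD98, or 4F2hc) that carries its partners to the cell surface, and SLC7A5 is LAT1, the light chain that exchanges large neutral amino acids such as leucine. SLC7A5 read 11.06, 11.29 and 11.59 in CTL, 10.66, 10.65 and 10.65 in KD3, and 10.60, 10.52 and 10.74 in KD4. Every knock-down value was below the lowest CTL value, and the KD3 and KD4 values overlapped. SLC7A5 fell to 63.2% of CTL in KD3 (-0.66 ± 0.13 SE, limma adjusted p = 0.00742) and to 61.8% in KD4 (-0.69 ± 0.13 SE, adjusted p = 0.00441). The genome holds partial copies of SLC7A5, and whether the probe also binds their transcripts was not examined.

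SLC3A2 read 10.99, 10.94 and 11.22 in CTL, 10.44, 10.70 and 10.49 in KD3, and 10.65, 10.63 and 10.68 in KD4. Neither knock-down overlapped CTL. Its mRNA fell to 70.5% of CTL in KD3 (-0.51 ± 0.10 SE, limma adjusted p = 0.00813) and to 76.2% in KD4 (-0.39 ± 0.10 SE, adjusted p = 0.0181). The KD4 call was lost without KD4 1 (-0.39, adjusted p = 0.0512), KD4 2 (-0.38, 0.0562) or CTL 3 (-0.31, 0.0517). SLC3A2 was the only member with a fitted value higher in KD4 than in KD3 (0.11, 95% interval -0.11 to 0.34, limma adjusted p = 0.57), a difference within the spread of the arrays. For SLC7A5 the same difference was -0.03 (-0.32 to 0.25, adjusted p = 0.911).

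SLC7A11 is xCT, the other light chain in the set, which imports cystine in exchange for glutamate and so supplies the cysteine used for glutathione. It read 11.86, 12.14 and 12.30 in CTL, 12.03, 11.96 and 11.69 in KD3, and 11.39, 11.44 and 11.47 in KD4. The KD3 values overlapped those of CTL, while all KD4 values were below both other groups. SLC7A11 fell to 63.0% of CTL in KD4 (-0.67 ± 0.13 SE, limma adjusted p = 0.00526). In KD3 the difference of -0.21 (95% interval -0.49 to 0.08) did not pass the test (adjusted p = 0.301). The difference between KD4 and KD3 was -0.46 (95% interval -0.75 to -0.17), which did not pass the correction over all probes either (limma adjusted p = 0.096). With normexp background correction it did, at an adjusted p of 0.0296.

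The cationic amino acid transporter SLC7A1 (CAT1), which takes up arginine and lysine, fell by a similar amount in both knock-downs. Its signal was 11.44, 11.31 and 11.46 in CTL, 11.01, 11.11 and 10.93 in KD3, and 10.98, 10.93 and 10.99 in KD4. The CTL values stood above all 6 knock-down values. SLC7A1 fell to 76.4% of CTL in KD3 (-0.39 ± 0.07 SE, limma adjusted p = 0.00783) and to 73.8% in KD4 (-0.44 ± 0.07 SE, adjusted p = 0.00332), and KD4 differed from KD3 by -0.05 (95% interval -0.22 to 0.12). Both calls held without any single array. SLC7A3 (CAT3), a related cationic carrier and the only member on the X chromosome, gave signals that stayed within the background on the 9 arrays (log2 signal 1.14 to 1.46), so that it entered no test.

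The SLC1 exchangers showed small decreases. SLC1A5 (ASCT2) exchanges neutral amino acids including glutamine. It read 10.91, 10.77 and 10.96 in CTL, 10.47, 10.68 and 10.68 in KD3, and 10.57, 10.60 and 10.63 in KD4, with no overlap between CTL and either knock-down. SLC1A5 fell to 82.4% of CTL in KD4 (-0.28 ± 0.08 SE, limma adjusted p = 0.0364), and in KD3 its difference of -0.27 ± 0.08 SE had an adjusted p of 0.0551. KD4 and KD3 were close, with a difference of -0.01 (95% interval -0.20 to 0.18). The KD4 call was lost without KD4 1 (-0.27, adjusted p = 0.102), KD4 2 (-0.28, 0.0902), KD4 3 (-0.29, 0.0776), CTL 1 (-0.26, 0.0823) or CTL 3 (-0.24, 0.108), and SLC1A5 passed in KD3 without CTL 2 (-0.32, adjusted p = 0.044). The KD4 call was also lost with no filter on dim probes (limma adjusted p = 0.0543) and with slide as a block (0.0506).

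SLC1A4 (ASCT1), an exchanger of alanine, serine and cysteine, had a KD4 call that rested on several arrays and settings. It read 6.02, 6.19 and 6.46 in CTL, 6.01, 5.82 and 5.71 in KD3, and 5.94, 5.53 and 5.76 in KD4. The highest KD3 value and the lowest CTL value were 6.01 and 6.02, so that the groups were barely apart. SLC1A4 fell by 0.48 on the log2 scale in KD4 (limma adjusted p = 0.0366), and the KD3 difference was -0.37 (adjusted p = 0.105). With normexp correction the differences were -0.24 in KD4 and -0.17 in KD3. The KD4 call was lost without KD3 2 (-0.48, adjusted p = 0.0541), KD4 2 (-0.38, 0.116), KD4 3 (-0.49, 0.0856), CTL 2 (-0.49, 0.0724) or CTL 3 (-0.36, 0.113), and under scaling to the 75th percentile (-0.38, 0.0733). At the same difference of -0.48 it also missed the threshold with no filter on dim probes (limma adjusted p = 0.0635), with only the KD4 and CTL arrays in the fit (0.0592) and with slide as a block (0.0513) and by the methods' t-test before and after correction.

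The SLC38 transporters fell in KD4. SLC38A1 and SLC38A2 (SNAT1 and SNAT2) are sodium-coupled carriers of small neutral amino acids, and SLC38A2 is known to be induced when cells are deprived of amino acids. The brighter SLC38A1 probe read 13.67, 13.97 and 13.85 in CTL, 13.76, 13.59 and 13.51 in KD3, and 13.32, 13.36 and 13.27 in KD4. KD3 overlapped CTL and KD4 lay below both. SLC38A1 fell to 70.3% of CTL in KD4 (-0.51 ± 0.10 SE, limma adjusted p = 0.00572), and in KD3 the difference was -0.21 (95% interval -0.43 to 0.01, adjusted p = 0.176). Its other probe read 13.01, 13.06 and 13.24 in CTL, 12.92, 12.86 and 12.61 in KD3, and 12.39, 12.40 and 12.38 in KD4. Here KD3 did not overlap CTL, though its difference of -0.31 was not called (limma adjusted p = 0.0582), and KD4 fell by 0.71 (adjusted p = 0.00118). Both SLC38A1 probes were lower in KD4 than in KD3 on every array, by -0.30 and -0.40, and neither difference passed the correction (limma adjusted p = 0.148 and 0.0716).

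The brighter SLC38A2 probe read 14.10, 14.12 and 14.16 in CTL, 14.17, 13.85 and 13.87 in KD3, and 13.75, 13.66 and 13.65 in KD4. On the first KD3 array its signal was the highest of the 9, whereas the other KD3 arrays lay between CTL and KD4. It fell to 73.7% of CTL in KD4 (-0.44 ± 0.09 SE, limma adjusted p = 0.00915), and its KD3 difference of -0.16 was not called (adjusted p = 0.272) but passed without KD3 1 (-0.27, adjusted p = 0.0409). The dimmer SLC38A2 probe read 13.10, 13.40 and 13.42 in CTL, 13.42, 13.18 and 13.15 in KD3, and 13.04, 13.02 and 12.99 in KD4, and was the one transporter probe not called in KD4 (-0.29, limma adjusted p = 0.0782). The SLC38A2 probes thus disagreed on the KD4 call, though not on its direction, and the dimmer one passed without CTL 1 (-0.39, adjusted p = 0.0208). In KD3 its difference was -0.05 (95% interval -0.30 to 0.19, adjusted p = 0.784).

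**Figure D2:**
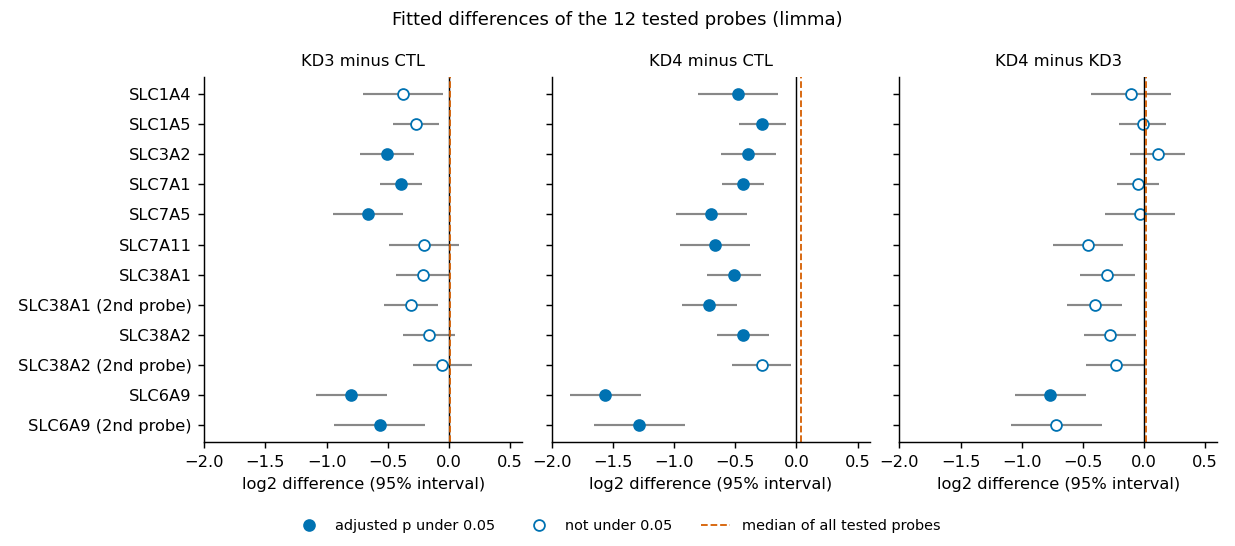
Fitted log2 differences (x axis) of the 12 tested transporter probes (y axis) for KD3 minus CTL, KD4 minus CTL and KD4 minus KD3, with 95% intervals from limma. Filled points have an adjusted p under 0.05 and the dashed line is the median of all tested probes. The filled points number 5, 11 and 1 in the 3 panels, and all lie to the left of 0.

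KD4 and KD3 were also compared directly, and whether this difference varied between members was not tested. The brighter and dimmer SLC38A2 probes had close differences (-0.28 and -0.23), though the interval included 0 for the dimmer one alone. The interval of KD4 minus KD3 included 0 for SLC1A4 (-0.43 to 0.22), SLC1A5, SLC3A2, SLC7A1, SLC7A5 and the dimmer SLC38A2 probe (-0.48 to 0.01). It lay below 0 for SLC7A11, both SLC38A1 probes, the brighter SLC38A2 probe (-0.49 to -0.06) and both SLC6A9 probes, which makes 6 probes at an unadjusted limma p under 0.05 (10.5% of all). Of these 6, the brighter SLC6A9 probe alone passed the correction over all probes, and no member rose (0.948% of all did), with 0 higher also at an unadjusted p under 0.05 and by the methods' t-test. Before correction that t-test called 5 lower (8.34% of all), and after it 0 of all 32276 probes (0%), transporters included. The KD4 and KD3 values did not overlap for 7 of 12 probes (29% of all). SMCHD1 itself was lower in KD4, and the part of the depth of the knock-down in these differences was not tested.

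Within each slide the direction was largely kept. KD4 was below CTL for 12 of 12 probes on slide 1, by -1.60 to -0.25, and for 12 of 12 on slide 2, by -1.50 to -0.06. KD3 was below CTL for 12 of 12 on slide 1, by -0.87 to -0.18. On slide 2 this held for 11 of 12, the exception being the dimmer SLC38A2 probe at 0.19 above. KD4 was below KD3 for 12 of 12 probes on slide 1 and 9 of 12 on slide 2. Slide 1 held 1 KD3 array, 2 CTL arrays and 2 KD4 arrays. Slide 2 held 1 CTL array, 1 KD4 array and 2 KD3 arrays. The values within a slide are thus given with no test.

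Lists of related genes were described by counts of genes (brightest probe of each) and not tested as sets. Among 43 other amino acid transporters of the cell and lysosome membrane, 31 were tested. Of these, 3 fell and 5 rose in KD3, where 14.8% of all genes fell and 10.4% rose, and 4 fell and 5 rose in KD4, where 19.8% fell and 14.7% rose. These counts were near the shares over all genes. The median log2 differences were 0.09 and 0.12, against -0.01 and 0.00 over all genes. SLC7A7, the y+LAT1 light chain that also pairs with SLC3A2, read 5.27, 5.42 and 5.51 in CTL, 4.05, 3.70 and 3.92 in KD3, and 3.98, 3.83 and 3.32 in KD4, and was above background on 2 of the 3 KD4 arrays. SLC7A7 was lower by -1.51 in KD3 and -1.69 in KD4 (limma adjusted p = 0.000594 and 0.000265). SLC43A1 (LAT3), a carrier of branched-chain amino acids, fell as well (-0.64 and -0.98, adjusted p = 0.00839 and 0.000855), as did SLC16A10 (TAT1), which carries aromatic amino acids (-0.33 and -0.38, adjusted p = 0.0226 and 0.00894), though its other probe was not called and had differences of 0.06 and 0.12.

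In the opposite direction, SLC38A7, a lysosomal glutamine carrier of the same family as SLC38A1, rose by 0.78 in KD3 and 0.89 in KD4 (limma adjusted p = 0.00231 and 0.000923). SLC36A4, a carrier of proline and tryptophan, rose by 0.75 and 0.74 (adjusted p = 0.00062 and 0.00054). Genes called against CTL in one knock-down only, named after their values were seen, were SLC1A1 (0.63), SLC7A2 (0.22) and SLC7A9, which rose in KD3, and SLC43A2 (1.23), SLC3A1 (0.68) and CTNS (0.46), which rose in KD4, while SLC6A15 fell in KD4 (-0.44). SLC7A9 was well above background on 3 KD3 arrays, 1 KD4 array and 0 CTL arrays, and so entered the test through the group in which it was high. Between KD4 and KD3, 2 of the 31 tested genes were lower in KD4 (1.89% of all genes) and 0 higher (1.36%). They were SLC1A1 (-0.40) and SLC6A15 (-0.53), each at a limma adjusted p of 0.0311, while the other SLC6A15 probes were not called. Of 10 tested mitochondrial and vesicular carriers, 1 fell and 1 rose in KD3, again near the shares over all genes. In KD4, 2 fell, near the share of 19.8%, and 3 rose, above the share of 14.7%, in a list of few genes. SLC25A29, a mitochondrial carrier of basic amino acids, fell in both (-0.66 and -0.42, limma adjusted p = 0.00154 and 0.00914). SFXN1, which moves serine into mitochondria, rose in both (0.86 and 1.22, limma adjusted p = 0.00463 and 0.000663). Called in KD4 and not in KD3 were SLC25A13 (-0.32), SLC25A2 (0.48) and SLC25A22 (0.28). SLC25A2 was also higher in KD4 than in KD3 (0.48, limma adjusted p = 0.0277), the only carrier of the 10 called between them (1.36% of all genes were higher).

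**Figure D3:**
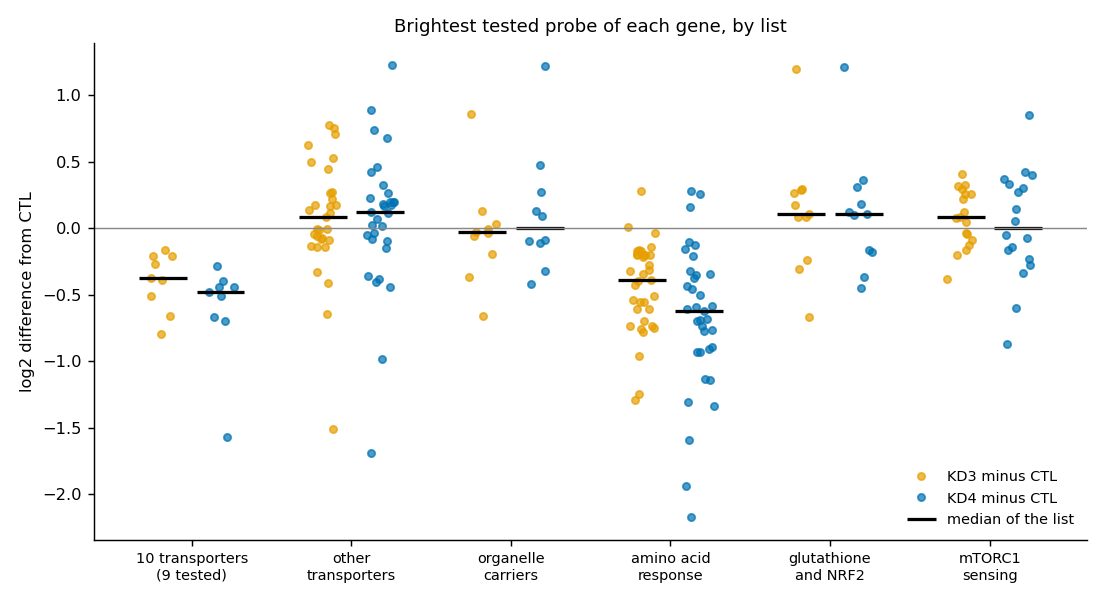
Log2 difference from CTL (y axis) of the brightest tested probe of each gene in 6 lists (x axis), for KD3 and KD4. Each point is a gene and the black line is the median of the list. The transporters (medians -0.37 and -0.48) and the amino acid response genes (-0.39 and -0.62) lie mostly below 0, and the other 4 lists are spread around it.

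Of 35 tested genes of the amino acid response, 14 fell in KD3 (14.8% of all genes) and 21 were not called there. In KD4, 25 fell (19.8% of all genes), 1, ATF5 (0.26), rose and 9 were not called. The median differences were -0.39 in KD3 and -0.62 in KD4. At 1.8-fold or more, 3 fell in KD3 (CHAC1, DDIT4 and PCK2) and 11 in KD4. The share of all genes at that threshold was not computed. Of all tested probes, 2.20% fell that far in KD3 and 3.19% in KD4. ATF4, the transcription factor of the pathway, read 17.57, 17.35 and 17.41 in CTL, 17.28, 17.36 and 17.20 in KD3, and 17.16, 17.12 and 17.08 in KD4. Its mRNA overlapped CTL in KD3 (-0.16, limma adjusted p = 0.202) and fell in KD4 (-0.32, adjusted p = 0.017), and since ATF4 is known to be controlled in translation, mRNA alone does not give its activity. EIF2AK4, the kinase GCN2, fell in both knock-downs (-0.32 and -0.69, limma adjusted p = 0.0263 and 0.000619).

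By the brightest probe of each gene, those of this list with the widest change were CHAC1, which degrades glutathione, and PCK2, the mitochondrial phosphoenolpyruvate carboxykinase. CHAC1 read 11.24, 10.96 and 11.78 in CTL, 10.19, 10.27 and 9.78 in KD3, and 9.10, 9.04 and 9.32 in KD4, a fall to 42.1% and 22.2% of CTL (limma adjusted p = 0.00428 and 0.000221). PCK2 fell to 40.9% in KD3 and 26.1% in KD4 (adjusted p = 0.00342 and 0.000358). Their other probes fell less, by -0.94 and -1.83 for CHAC1 (limma adjusted p = 0.0125 and 0.000404) and by -0.72 and -1.44 for PCK2 (0.0433 and 0.00163). For both genes the 3 groups did not overlap and stood in the order CTL, KD3, KD4, as for SLC6A9. DDIT4, an inhibitor of mTORC1, fell (-0.96 and -1.59, limma adjusted p = 0.000281 and 1.81e-05) and was the only gene of this list whose difference between KD4 and KD3 passed the correction (-0.64, adjusted p = 0.014). That difference was larger in size but not called for CHAC1 (-0.92, limma adjusted p = 0.0622) and PCK2 (-0.65, 0.141). ASNS, asparagine synthetase, fell (-0.78 and -1.13, adjusted p = 0.0183 and 0.00258), as did TRIB3, a pseudokinase that acts on ATF4 (-0.73 and -0.70, 0.00675 and 0.00619), and PSAT1 of the serine synthesis pathway (-0.43 and -0.68, 0.0393 and 0.00396). DDIT3 (CHOP) was not called (-0.51 in KD3 and -0.45 in KD4, limma adjusted p = 0.0653 and 0.0741). In the promoter table, 7 of 29 genes of this list held the TGATGNAA core (24.1%), against 5 of 8 transporters (62.5%) and 4.46% of all genes. A gene counted if any of its windows matched, and genes differ in their number of windows. By window the shares were 15.9% for this list, 35.7% for the transporters and 3.62% for all promoters. Several of the transporters were already known targets of this response, so that their share is not that of a blind choice of genes. The share among the other amino acid transporters was not computed.

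**Figure D4:**
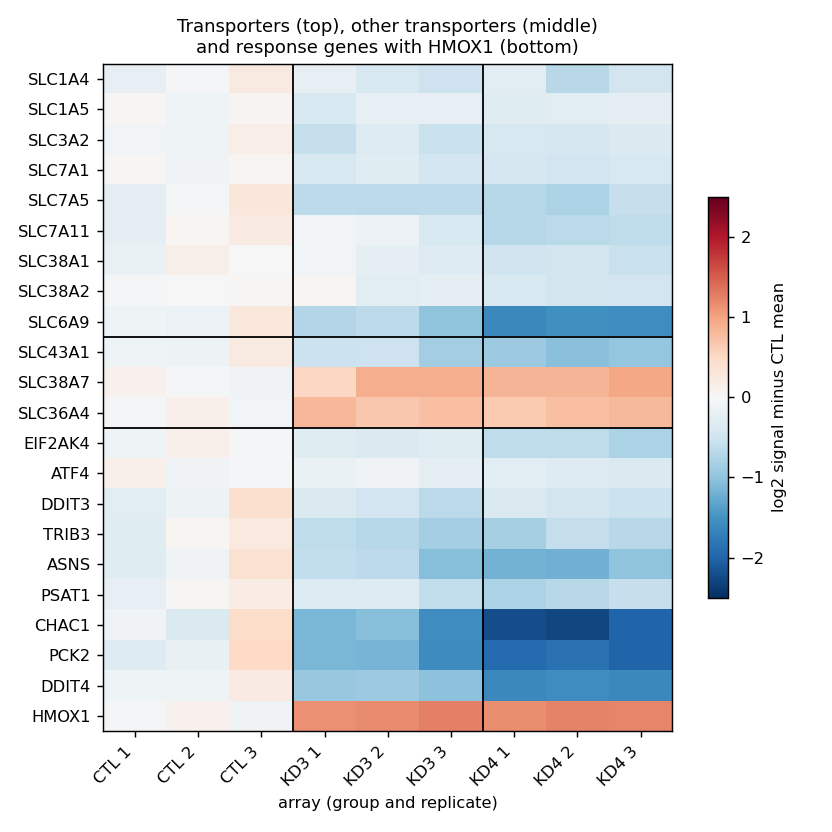
Log2 signal minus the CTL mean of the gene (colour) on each of the 9 arrays (x axis) for 22 genes (y axis), with the 9 tested transporters on top, SLC43A1, SLC38A7 and SLC36A4 in the middle, and 9 response genes and HMOX1 at the bottom. Blue is below and red above the CTL mean. The KD4 columns are deepest blue for SLC6A9, CHAC1, PCK2 and DDIT4, and SLC38A7, SLC36A4 and HMOX1 are red in both knock-downs.

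In pathways that use or sense the cargo of these carriers, the counts were read against 14.8% lower and 10.4% higher over all genes in KD3 and 19.8% and 14.7% in KD4. Of 11 genes of glutathione metabolism and the NRF2 pathway, for which SLC7A11 supplies cystine, 2 fell and 2 rose in KD3 and 1 fell and 2 rose in KD4, with a median of 0.11 in both. SRXN1, which repairs oxidised peroxiredoxins, fell (-0.66 and -0.45), GPX4 fell in KD3 (-0.31), and TXNRD1, thioredoxin reductase, rose (0.30 and 0.37). HMOX1, heme oxygenase, rose by 1.19 and 1.21 (limma adjusted p = 2.41e-05 and 2.04e-05). Of 18 tested genes that relay amino acids to mTORC1, 1 fell and 3 rose in KD3 and 5 fell and 6 rose in KD4. NPRL3, a subunit of the GATOR1 inhibitor, fell in both (-0.38 and -0.34), and FLCN (0.41 and 0.85), RPTOR (0.26 and 0.28) and RRAGA (0.26 and 0.30) rose in both. The other 4 that fell in KD4 were LAMTOR3 (-0.87), SESN1 (-0.60), LAMTOR4 (-0.27) and DEPDC5 (-0.23), and the other 3 that rose there were LAMTOR1 (0.40), RRAGC (0.37) and RHEB (0.34). The dimmer probes of LAMTOR3 (-0.68, limma adjusted p = 0.0808) and DEPDC5 (-0.30 and 0.05, 0.111 and 0.795) were not called in KD4.

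Over the 9 arrays, Pearson's correlation between pairs of the 9 transporters ran from 0.457 (SLC3A2 with SLC38A2) to 0.945 (SLC7A11 with SLC38A1). The mean of their z-scored signals was 0.76, 0.95 and 1.56 on the CTL arrays, -0.10, -0.12 and -0.52 in KD3, and -0.77, -0.97 and -0.78 in KD4. The CTL arrays were thus the highest, with CTL 3 at the top, and the KD3 arrays lay between CTL and KD4. The genes outside the set whose brightest probe followed this mean most closely over the 9 arrays, by Pearson correlation, were PSIP1 (0.995), PCK2 (0.995), SLC43A1 (0.994), AP3M2 (0.992) and COL13A1 (0.991). As the arrays fall into 3 groups, the group means set most of each correlation. PSIP1 encodes a chromatin-bound coactivator, AP3M2 a subunit of the AP-3 vesicle coat and COL13A1 a transmembrane collagen. They were picked for following a mean that was highest in CTL, so that lower values in the knock-downs follow from the choice. The log2 differences from CTL in KD3 and KD4 were -0.63 and -0.90 for PSIP1, -0.22 and -0.31 for AP3M2, and -1.06 and -1.56 for COL13A1.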

How the data were processed

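Total RNA of 9 HEK293 samples (3 per group, grouped by the shRNA in the sample titles) was hybridised to Agilent SurePrint G3 arrays. For each array the authors deposited the spot intensity as written by Agilent Feature Extraction 10.10.1.1, whose processed signal is background-corrected. They also deposited a table of log2 values, quantile normalized in GeneSpring (the methods write quintile), which was used as an alternative and lay a median of -0.08 from the values here.

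Control spots and spots marked as outliers (260 to 634 of 58717 per array) were left out, quantile normalization of the log2 processed signals was done in limma 3.58.1 under R 4.3.3, and the mean over a probe's spots was taken. Probes well above background on all arrays of at least 1 group were tested, 21 probes lacking a value on an array were dropped, and 25422 of 42405 probes were named through RefSeq accessions and a GRCh38.p14 gene table. As the array design uses GRCh37, no probe coordinates are given. Group means were fitted with lmFit and eBayes over 9 arrays, and p-values were adjusted over 32276 probes by the Benjamini-Hochberg method, with a threshold of 0.05. The number of arrays limits the precision. The scripts were tested on simulated data.

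The transporters, the other lists and the tests were chosen with earlier results of these data known. All 10 transporters were named with every probe, as were SMCHD1, ATF4, ASNS, TRIB3, CHAC1, DDIT3, PSAT1 and EIF2AK4 whatever their values. From each list up to 4 genes per direction called in both knock-downs were named, by the smaller of their changes, and the 5 genes most correlated with the transporters. Genes called in one knock-down only were named after their values were seen. Figures were drawn with matplotlib 3.10.9. Alternatives were the scaling, the background correction, the authors' values, the filter on dim probes, the test, the samples in the fit, blocks for slide and replicate number, 1 probe per gene and leaving out each array.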

Additional observations from a re-analysis of the deposited data

Results flagged for a closer look

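SLC6A9, the glycine transporter, drew attention because its level differed between the knock-downs themselves. The signal of its brighter probe was 0.768 lower on the log2 scale in KD4 than in KD3 (-0.768, limma adjusted p = 0.0228), with all 3 KD4 arrays below all 3 KD3 arrays, and over 11 alternative settings the difference ran from -0.81 to -0.72 with adjusted p from 0.00462 to 0.25. The dimmer SLC6A9 probe differed by -0.72 (limma adjusted p = 0.0602) and did not pass.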

How the results depend on the processing

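The array number and the moderate sizes of change limit these calls. Each count of transporter probes is given with the share of all tested probes that were lower in the same setting. By the methods' t-test with Benjamini-Hochberg correction, 0 were lower in KD3 (0.905%) and 2 in KD4 (3.57%) against CTL, and 0 in KD4 against KD3 (0%). Between KD4 and KD3, where 1 probe was lower (1.52%), the count was 3 with normexp background correction (2.06%). It was 2 over probes well above background on all 9 arrays (1.88%), 5 by the methods' t-test without adjustment (8.34%) and 0 with the replicate block (0.483%). Leaving out each array in turn gave 4 to 6 lower probes in KD3 (7.44% to 9.5%) and 8 to 11 in KD4 (11.1% to 14.9%). Between KD4 and KD3 it gave 0 to 2 (0.384% to 1.72%). Those between KD4 and KD3 were 0 without KD3 1, KD3 2, KD4 1, KD4 2 or KD4 3 and 2 without CTL 1. The direction turned only for differences near 0: SLC1A4 between KD4 and KD3 under scaling to the 75th percentile (0.0499), and, with single arrays left out, SLC1A5 (-0.0829 to 0.0238) and SLC7A5 (-0.0936 to 0.0141) between KD4 and KD3 and the dimmer SLC38A2 probe in KD3 (-0.156 to 0.003). Whether replicate numbers pair the arrays was not settled. Same-numbered arrays had correlations of their deviations from -0.0775 to 0.143 over 9 pairs, and 5 of 9 arrays were closest to their own number. Arrays numbered 1 all lay on slide 2 and those numbered 2 on slide 1, so that number and slide are hard to tell apart. With the replicate block, calls were lost for SLC1A4 in KD4 (-0.48, limma adjusted p = 0.0607), SLC1A5 in KD4 (-0.28, 0.0581), the dimmer SLC6A9 probe in KD3 (-0.57, 0.0709) and the brighter one between KD4 and KD3 (-0.77, 0.0742). Among the values of single transporter probes, 635 kept their direction and side of the threshold, 53 lost a call, 17 gained one and 6 changed sign. The cause of these changes was not tested.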
